A study of Mus musculus with 19 samples.

Results

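The genes described here are 9 genes of methionine, folate one-carbon and choline metabolism, chosen by name because the diet of the study lacks methionine and choline. They are Mat2a, Mat2b, Ahcy and Mtr of the methionine cycle, Shmt2 and Mthfd2 of folate one-carbon metabolism, and Slc44a1, Chka and Pcyt1a of choline uptake and phosphatidylcholine synthesis. Earlier results of these data were known when the genes were chosen, so counts set beside all genes are no test of the set. All 9 were found by symbol among the 33919 gene identifiers of the deposited table, and all 9 passed the filter on low values, which 14875 identifiers passed. RNA was sequenced in 19 libraries made from sorted Kupffer cells, the macrophages that live in the sinusoids of the liver. The mice were female wild-type C57BL/6. Chow_EmKCs (n = 6) were embryo-derived cells of mice on chow. MCD_EmKCs (n = 6) were embryo-derived cells of mice kept for 4 weeks on the methionine- and choline-deficient (MCD) diet, and MCD_MoKCs (n = 7) were monocyte-derived cells of mice on that diet. Both kinds were sorted as CLEC2+, and the presence or absence of TIMD4 set the embryo-derived cells apart from the monocyte-derived cells, so the names of the groups rest on that gate. Age is not given in the labels, and no monocyte-derived cells of chow-fed mice are among the groups, so diet and origin cannot be told apart between MCD_MoKCs and Chow_EmKCs. The labels do not say which libraries come from separate animals, so p-values measure the spread between these libraries, which may be technical.

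In the methionine cycle, methionine is joined with ATP to form S-adenosylmethionine (SAM), the methyl donor of most methylation reactions, and the product left after methylation is broken down to homocysteine. Homocysteine is turned back into methionine with a methyl group from folate, or in hepatocytes from betaine, an oxidation product of choline. Mitochondrial folate enzymes release one-carbon units from serine that feed purine and thymidylate synthesis. Choline taken up by cells is phosphorylated, activated with CTP and joined to diacylglycerol to give phosphatidylcholine, and the liver can also make phosphatidylcholine by methylating phosphatidylethanolamine with SAM. Mice on the MCD diet lose weight and develop fatty, inflamed livers.

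Total reads ranged from 11642240 to 30983487 per library, and each of the 9 genes had reads in every library. The fewest reads over a group were 387, for Ahcy in MCD_EmKCs. Of 10 Kupffer cell markers, none was at 0 in any group. Their summed level was 549846 to 709402 normalised reads in Chow_EmKCs, against 514802 to 617330 in MCD_EmKCs and 219403 to 337305 in MCD_MoKCs. A normalised read is a read divided by the size factor of its library. The 14 hepatocyte markers summed to 4600.3 to 13638 normalised reads in Chow_EmKCs, against 839 to 3866 in MCD_EmKCs and 733 to 2098 in MCD_MoKCs, with no marker at 0 in a whole group. The share of mitochondrial reads was 0.511 to 1.05% in Chow_EmKCs and 0.155 to 0.317% in MCD_EmKCs. In MCD_MoKCs it was 0.534 to 0.729% in libraries 1 to 3 and 0.244 to 0.359% in libraries 4 to 7.

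The promoters of the 5 genes that passed the test in at least 1 comparison are shown. Pcyt1a and Slc44a1 passed only between MCD_MoKCs and Chow_EmKCs, where diet and origin cannot be told apart. Each is a window of 300 bases from RefSeq (GRCm38.p6, the assembly called mm10), with 250 bases before the start site and 50 from it. The windows lie at chr10:127522395-127522694, minus strand for Shmt2, chr6:83317555-83317854, minus strand for Mthfd2, chr19:3851523-3851822, plus strand for Chka, chr16:32430671-32430970, plus strand for Pcyt1a and chr4:53440163-53440462, plus strand for Slc44a1. Of several windows for Pcyt1a and Slc44a1, the first is shown. The RefSeq start of Mthfd2 lies inside the longer gene span of the GENCODE annotation. Capitals mark the letters CCAAT or their reverse complement ATTGG.
Shmt2 promoter: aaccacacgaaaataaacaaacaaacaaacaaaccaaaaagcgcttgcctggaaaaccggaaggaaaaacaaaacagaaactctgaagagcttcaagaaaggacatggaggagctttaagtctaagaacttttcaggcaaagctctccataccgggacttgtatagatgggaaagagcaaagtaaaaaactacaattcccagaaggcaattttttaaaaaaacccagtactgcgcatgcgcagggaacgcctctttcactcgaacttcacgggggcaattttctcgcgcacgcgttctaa
Mthfd2 promoter: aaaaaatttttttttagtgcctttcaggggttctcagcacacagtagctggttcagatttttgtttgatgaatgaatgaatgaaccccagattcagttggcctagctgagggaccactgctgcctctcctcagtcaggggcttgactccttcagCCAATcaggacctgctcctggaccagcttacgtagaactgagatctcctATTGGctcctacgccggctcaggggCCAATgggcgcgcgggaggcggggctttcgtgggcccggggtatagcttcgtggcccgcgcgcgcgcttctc
Chka promoter: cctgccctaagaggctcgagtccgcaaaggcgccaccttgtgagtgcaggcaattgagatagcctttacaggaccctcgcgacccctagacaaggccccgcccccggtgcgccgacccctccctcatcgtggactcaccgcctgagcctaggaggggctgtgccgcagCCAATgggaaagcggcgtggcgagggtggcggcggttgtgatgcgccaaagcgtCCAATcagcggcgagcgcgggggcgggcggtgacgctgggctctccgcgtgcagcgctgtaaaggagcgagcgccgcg
Pcyt1a promoter: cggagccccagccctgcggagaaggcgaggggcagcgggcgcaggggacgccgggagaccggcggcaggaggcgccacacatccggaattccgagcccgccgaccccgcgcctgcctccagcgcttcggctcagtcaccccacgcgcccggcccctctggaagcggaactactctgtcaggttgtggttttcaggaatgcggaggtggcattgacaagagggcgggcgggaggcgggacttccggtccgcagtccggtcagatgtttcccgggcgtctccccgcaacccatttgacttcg
Slc44a1 promoter: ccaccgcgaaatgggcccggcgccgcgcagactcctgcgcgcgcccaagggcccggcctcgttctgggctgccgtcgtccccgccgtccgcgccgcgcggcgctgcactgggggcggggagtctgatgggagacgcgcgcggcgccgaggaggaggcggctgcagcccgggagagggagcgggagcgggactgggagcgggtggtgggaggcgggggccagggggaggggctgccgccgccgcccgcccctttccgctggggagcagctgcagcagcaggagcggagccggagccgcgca

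RefSeq windows were found for all 9 genes, 12 in all. Their median GC content was 64.5%, against 52.7% over all 32851 windows. Shmt2 had 42.7% GC and the first Slc44a1 window 79.7%. The search covered both strands for the amino acid response element of ATF4 target genes, written TGATGNAA, for the E-box CACGTG, a binding sequence of MYC, and for CCAAT. TGATGNAA was in 0 of the 12 windows and in 3.97% of all windows. CACGTG was in 0 of the 12 windows and in 7.15% of all windows. CCAAT was in 6 of the 12 windows, those of Mat2a, Mat2b, Ahcy, Mtr, Mthfd2 and Chka, and in 37.41% of all windows. Mthfd2 held 3 copies, at -96, -47 and -22 from its start site, and 3.37% of all windows held at least 3. Chka held 2 copies, at -82 and -28, and 11.7% of all windows held at least 2. A match is a run of letters, and no binding was measured here.

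The first comparison asks what the diet changed in embryo-derived cells. Shmt2 fell and Mthfd2 and Chka rose in MCD_EmKCs, so 3 of the 9 genes passed the threshold, against 4.08% of all genes tested (limma on log2 of normalised reads plus 1, Benjamini-Hochberg adjusted p under 0.05). In 1 direction, 2 genes were higher, against 2.50% of all genes, and 1 was lower, against 1.58%. For 2 of the 9 genes the groups did not overlap, as for 2.96% of all genes. The 9 genes were chosen with earlier results of these data known, so these shares are descriptive. The median log2 fold change of the 9 genes was 0.31, and that of all genes was -0.04. Scaling to the library total moved the latter to -0.13 and the split of all calls from 372 higher and 235 lower to 247 higher and 282 lower, and left only Shmt2 called among the 9. Fits without 1 library called 1 to 3 of the 9 genes, with 1 called without Chow_EmKCs 1, 5 or 6 or MCD_EmKCs 4, 5 or 6.

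The second comparison asks how monocyte-derived cells differed from embryo-derived cells on the same diet. Shmt2 was higher in MCD_MoKCs and was the only one of the 9 genes to pass, against 10.5% of all genes. The count was 0 without MCD_EmKCs 4, without MCD_EmKCs 6 and without MCD_MoKCs 1 to 3 together. A fit with a replicate block added Mat2a. Of all genes, 5.64% were higher and 4.90% lower, and of the 9 genes 1 and 0. It was also the only one of the 9 whose groups did not overlap, as they did not for 4.86% of all genes. The median log2 fold change was 0.51 for the 9 genes and 0.02 for all genes.

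The third comparison sets monocyte-derived cells on the diet against embryo-derived cells on chow, so it takes diet and origin together. Mthfd2, Chka, Pcyt1a and Slc44a1 were higher in MCD_MoKCs, so 4 of the 9 genes passed, against 16.8% of all genes. Of all genes, 8.68% were higher and 8.08% lower, and of the 9 genes 4 and 0. Pcyt1a was the only one of the 9 whose groups did not overlap, as they did not for 7.97% of all genes. The median log2 fold change was 0.27 for the 9 genes and -0.01 for all genes. The 3 comparisons share groups with each other, so their fold changes are given side by side and not as independent results.

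**Figure D1:**
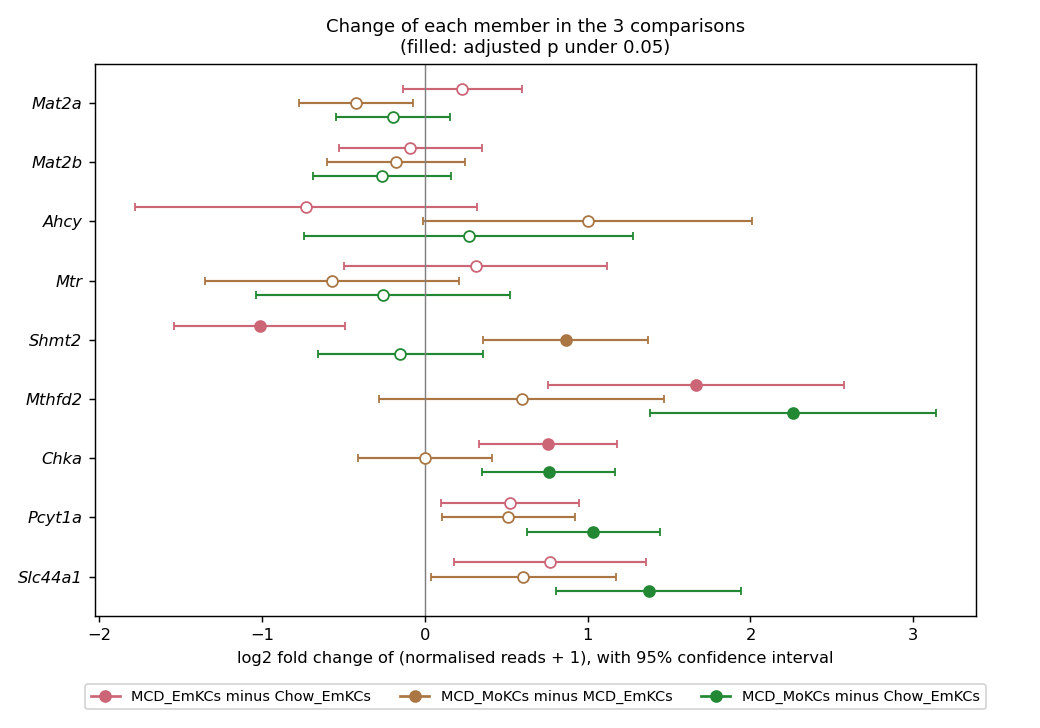
Log2 fold changes of the 9 genes with 95% confidence intervals in the 3 comparisons, with filled points where the limma adjusted p was under 0.05. Shmt2 lies at -1.01 for diet and at 0.86 for origin, Mthfd2 lies highest at 2.26 for MCD_MoKCs against Chow_EmKCs, and no methionine cycle gene is filled.

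Of the 4 methionine cycle genes, 0 passed the limma threshold in any comparison. At an unadjusted limma p under 0.05 the counts were 0 for diet, 1 for origin and 0 for the third comparison, and edgeR and DESeq2 on the recovered reads called 0 in each. The limma fit with a replicate block was the exception and called Mat2a by origin, as given at the end. Gene positions are those of mm10. Mat2a (ENSMUSG00000053907, chromosome 6, 72432799 to 72439558) encodes the catalytic subunit of the methionine adenosyltransferase that makes SAM outside the liver parenchyma. Normalised reads of Mat2a, given as lowest, median and highest, came to 2518, 4166 and 5171 for Chow_EmKCs, 3768, 4588 and 6099.7 for MCD_EmKCs and 2684, 3484 and 5005 for MCD_MoKCs. The 3 ranges overlapped, with the highest library in MCD_EmKCs and 5 of 7 MCD_MoKCs libraries below every MCD_EmKCs library. The difference by diet was 0.23 on the log2 scale (limma adjusted p = 0.57, SE 0.18), and that by origin was -0.42 (95% interval -0.77 to -0.07, limma adjusted p = 0.12). Mat2a shares 508 of its 4486 exon bases (11.3%) with the opposite-strand transcript Particl. Whether counting used the strand is not given in the sources used here, so reads of the 2 cannot be told apart. Gm9523 matches Mat2a at 95.6% over 1164 bases, and neither Gm9523 nor Particl is among the deposited identifiers. The part of either in the Mat2a values was not tested.

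Mat2b (ENSMUSG00000042032, chromosome 11, 40679314 to 40695203) encodes the regulatory subunit of the same enzyme. Chow_EmKCs had 836, 929.9 and 1113 normalised reads of Mat2b (lowest, median, highest), MCD_EmKCs had 691, 917 and 1078, and MCD_MoKCs had 502, 867 and 1218. All 3 ranges overlapped, and MCD_MoKCs held both the lowest and the highest library. The difference by diet was -0.09 on the log2 scale (95% interval -0.53 to 0.35, limma adjusted p = 0.891). The ratio of Mat2a to Mat2b, both per kilobase of exon, had a median of 4.93 in Chow_EmKCs, against 5.25 in MCD_EmKCs and 5.13 in MCD_MoKCs. The catalytic subunit gene was thus above the regulatory one in every library, the lowest ratio being 2.52.

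Mtr (ENSMUSG00000021311, chromosome 13, 12182712 to 12258113) encodes methionine synthase, which methylates homocysteine with a folate methyl group and needs vitamin B12. Normalised reads of Mtr, given as lowest, median and highest, came to 508, 654 and 747 for Chow_EmKCs, 309, 779.9 and 1789 for MCD_EmKCs and 182, 593 and 1353 for MCD_MoKCs. The MCD groups spread wider than Chow_EmKCs on both sides, with a coefficient of variation of 54.4% and 63.2% against 15.8%. The difference in spread was not tested. The log2 fold change was 0.31 (95% interval -0.49 to 1.12, limma adjusted p = 0.76) for diet and -0.57 (limma adjusted p = 0.401) for origin.

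Ahcy (ENSMUSG00000027597, chromosome 2, 155059310 to 155074497) encodes the hydrolase that splits S-adenosylhomocysteine into homocysteine and adenosine. Chow_EmKCs had 57.2, 81.8 and 134 normalised reads of Ahcy (lowest, median, highest), MCD_EmKCs had 17.8, 66.5 and 95.1, and MCD_MoKCs had 60.8, 81.7 and 239.9. MCD_EmKCs 5 and 6 were low at 19.5 and 17.8, and MCD_MoKCs 3 was high. The log2 fold change was -0.73 (95% interval -1.78 to 0.32, limma adjusted p = 0.525) for diet and 1.00 (95% interval -0.01 to 2.01, limma adjusted p = 0.22) for origin. Its values are uncertain, because Gm4737 matches it at 99.7% over 2083 bases and the pseudogene Gm9826 at 99.2% over 1299 bases. Gm4737 was itself given 0 to 53.2 normalised reads, with a median of 13.9.

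**Figure D2:**
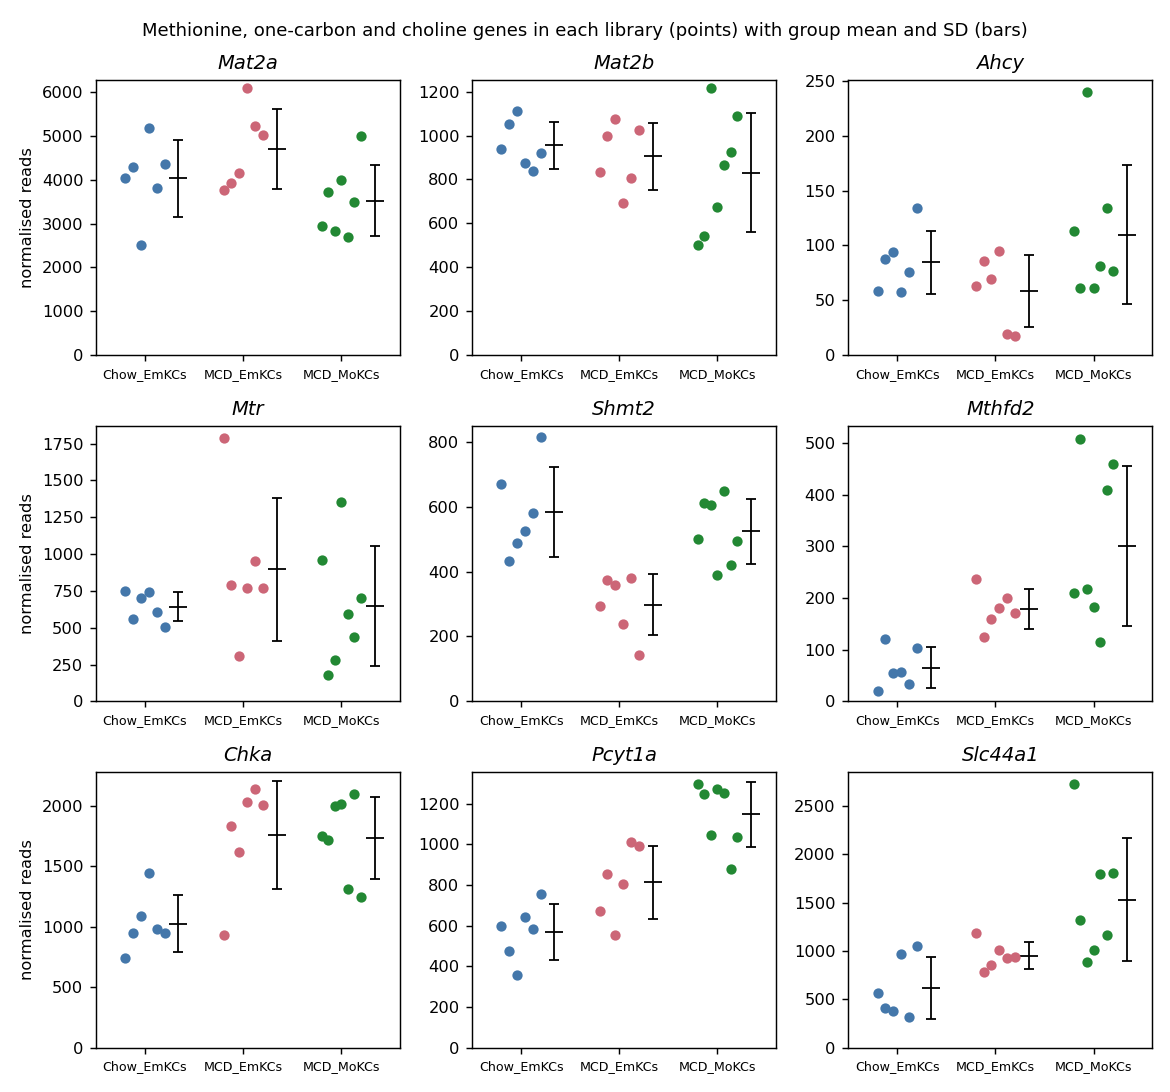
Normalised reads (vertical axis) of the 9 genes in each library (points) by group, with the group mean and SD (bars). In Shmt2 the 6 MCD_EmKCs libraries lie below all others, in Mthfd2 the 6 Chow_EmKCs libraries lie below all MCD_EmKCs libraries, and in Pcyt1a all 7 MCD_MoKCs libraries lie above all Chow_EmKCs libraries.

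Among 65 other genes of these pathways, 58 were tested. Of these, 3 were higher and 4 lower by diet (12.1% called, against 4.08% of all genes tested). By origin 2 were higher and 3 lower (8.62%, against 10.5%). In MCD_MoKCs against Chow_EmKCs 6 were higher and 9 lower (25.9%, against 16.8%). The same shares of all genes apply beside the counts of each list below. The lists were also chosen with earlier results of these data known, so the shares are no test of them. The median log2 fold changes of the 58 genes were -0.05, 0.01 and 0.05. Without Chow_EmKCs 5 the diet count fell to 4, and without MCD_EmKCs 1 the origin count was 8.

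Of 11 other genes of the methionine cycle and transsulfuration, 0 rose and 2 fell by diet, and 0 rose and 4 fell in MCD_MoKCs against Chow_EmKCs. Mat1a, the SAM synthetase gene of hepatocytes, had 102, 864 and 1203 normalised reads (lowest, median, highest) in Chow_EmKCs, against 49.9, 120.0 and 406 in MCD_EmKCs and 9.97, 94.4 and 291 in MCD_MoKCs. It fell by 3.18 on the log2 scale in the third comparison (SE 0.66, limma adjusted p = 0.00102). Gnmt, a glycine methyltransferase of liver that consumes SAM, fell from 439 ± 247 (SD, n = 6) in Chow_EmKCs to 32.7 ± 23.7 (n = 7) in MCD_MoKCs, with no overlap (limma adjusted p = 2.4e-05). Bhmt, which remethylates homocysteine with betaine, fell from 414 ± 241 to 109 ± 55.9 by diet (limma adjusted p = 0.0406) and to 85.0 ± 54.6 in MCD_MoKCs (limma adjusted p = 0.00187). These genes are textbook hepatocyte genes, and the hepatocyte markers moved with them. Of 14 hepatocyte markers, 10 were lower and 0 higher by diet, and 13 were lower and 0 higher in the third comparison. Their part in the results for Mat1a, Gnmt and Bhmt was not tested. In these bulk samples, fewer cells of a type and less RNA per cell cannot be told apart.

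Adk, the kinase that removes the adenosine made by Ahcy, had 144, 222 and 475 normalised reads (lowest, median, highest) in Chow_EmKCs, against 23.3, 90.2 and 206 in MCD_EmKCs and 158, 304 and 446 in MCD_MoKCs. MCD_EmKCs were low, with 5 of 6 libraries below every Chow_EmKCs library and 6 of 7 MCD_MoKCs libraries above every MCD_EmKCs library. The difference by diet was -1.63 on the log2 scale (limma adjusted p = 0.0306, SE 0.44), and that by origin was 1.95 (SE 0.42, limma adjusted p = 0.0025). Gnmt was also lower by origin, with a log2 fold change of -1.96 (limma adjusted p = 0.0345). By origin, 0 of 14 hepatocyte markers were lower and 1 was higher. The diet calls of Adk and Bhmt and the origin call of Gnmt were lost without 1 of several libraries. For Adk these were Chow_EmKCs 3, 5 and 6 and MCD_EmKCs 1 and 2 (adjusted p 0.0589 to 0.0920), and the call was also lost with edgeR (0.0763) and with only the 2 groups in the fit (0.0732). For Bhmt they were Chow_EmKCs 1, 3, 5 and 6 and MCD_EmKCs 2, 4 and 5 (0.0533 to 0.110), and for Gnmt MCD_EmKCs 1, 2, 4 and 6 and MCD_MoKCs 1, 2, 3 and 7 (0.0508 to 0.0802). With no filter on low values the adjusted p was 0.0612 for Bhmt and 0.0526 for Gnmt, and for Gnmt it was 0.0845 with only the 2 groups in the fit, 0.0505 with the library number set as a covariate and 0.29 without MCD_MoKCs 1 to 3.

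Decarboxylated SAM is the donor for polyamines, and of 9 genes of polyamine synthesis and methionine salvage 2 rose and 0 fell by diet. Amd1 of this list changed by 0.27 on the log2 scale by diet (limma adjusted p = 0.842) and passed in no comparison. Neither SAM nor polyamines were measured. Odc1, which makes putrescine, rose from 610.3 ± 176 normalised reads (SD, n = 6) to 1118 ± 285 in MCD_EmKCs (n = 6), or by 0.88 on the log2 scale (limma adjusted p = 0.0192, SE 0.22). Srm, spermidine synthase, rose from 553 ± 70.2 to 1036 ± 209, or 0.88 (SE 0.20, limma adjusted p = 0.00719). In both genes 5 of 6 MCD_EmKCs libraries lay above every Chow_EmKCs library, and in MCD_MoKCs all 7 did, with means of 1180.3 ± 258 and 940.0 ± 189.7. The diet call of Odc1 was lost without Chow_EmKCs 5 (adjusted p = 0.0558) or MCD_EmKCs 5 (0.057), and with scaling to the library total (0.0679). Apart from the fits without 1 library, 2 alternatives lost and 10 kept the diet call, for Odc1 and for Srm alike. In MCD_MoKCs against Chow_EmKCs, 3 lost and 9 kept the call of Srm, and 1 lost and 11 kept that of Odc1.

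Shmt2 (ENSMUSG00000025403, chromosome 10, 127517123 to 127522444), whose promoter is shown above, encodes the mitochondrial serine hydroxymethyltransferase, which splits serine into glycine and a folate-bound one-carbon unit. Normalised reads of Shmt2, given as lowest, median and highest, came to 431, 552 and 815 for Chow_EmKCs, 142, 327 and 379.8 for MCD_EmKCs and 389, 500.3 and 647 for MCD_MoKCs. MCD_EmKCs were low, and their highest library lay below the lowest of either other group. The group means were 584 ± 139 (SD, n = 6), 298 ± 94.1 (n = 6) and 524 ± 99.6 (n = 7). Shmt2 fell by 1.01 on the log2 scale by diet (SE 0.26, limma adjusted p = 0.0199) and was higher by 0.86 in MCD_MoKCs than in MCD_EmKCs (SE 0.25, limma adjusted p = 0.0226). Both differences rest on the same 6 MCD_EmKCs libraries. MCD_MoKCs and Chow_EmKCs differed by -0.15 (95% interval -0.66 to 0.36, limma adjusted p = 0.758).

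The column names carry library numbers that leave a gap between 33 and 37, and differences were computed within each side of it. Within the lower numbers Shmt2 changed by -0.61 by diet (limma adjusted p = 0.476) and 0.67 by origin (0.24), and within the higher numbers by -1.42 (0.0826) and 0.96 (0.298). The diet call of Shmt2 was lost without Chow_EmKCs 6 (adjusted p = 0.0599) or MCD_EmKCs 6 (0.0548). The origin call was lost without MCD_EmKCs 4 (0.0523) or 6 (0.0701), and without MCD_MoKCs 1 to 3 together (0.76 on the log2 scale, adjusted p = 0.152). By diet, 10 of 14 hepatocyte markers were lower, with the sums given above. Of 10 Kupffer cell markers 2 were lower and 1 higher by diet. Higher by diet were also 2 of 3 tested markers of platelets and 1 of 9 of sinusoidal endothelial cells. By origin, 1 of 14 hepatocyte markers, 4 of 9 tested markers of T and NK cells, 1 of 4 each of B cells and neutrophils, 1 of 3 of platelets and 3 of 9 of sinusoidal endothelial cells were higher. In that comparison 2 of the endothelial markers and 8 of 10 Kupffer cell markers were lower, and the latter include Timd4, whose protein set the gate. The part of these cells in the Shmt2 results, and in the diet results for Mthfd2 and Chka, was not tested.

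Mthfd2 (ENSMUSG00000005667, chromosome 6, 83305691 to 83325908) encodes the mitochondrial dehydrogenase and cyclohydrolase that oxidises the one-carbon unit made by Shmt2, and is known for low levels in most adult tissues and high levels in dividing cells. Chow_EmKCs had 19.8, 55.5 and 121 normalised reads of Mthfd2 (lowest, median, highest), MCD_EmKCs had 124, 175 and 237, and MCD_MoKCs had 115, 218 and 509. Every MCD_EmKCs library lay above every Chow_EmKCs library, by a narrow gap between 121 and 124. In MCD_MoKCs 6 of 7 libraries lay above all Chow_EmKCs libraries, and libraries 2, 6 and 7 stood above the rest at 509, 409.5 and 459.5. The group means were 64.9 ± 39.7 (SD, n = 6), 179 ± 38.1 (n = 6) and 300.4 ± 155 (n = 7). Mthfd2 rose by 1.67 on the log2 scale by diet (SE 0.44, limma adjusted p = 0.028), and was 2.26 higher in MCD_MoKCs than in Chow_EmKCs (SE 0.43, limma adjusted p = 0.000318). The difference by origin was 0.60 (95% interval -0.28 to 1.47, limma adjusted p = 0.441).

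The size of the Mthfd2 diet difference was alike within the lower and the higher library numbers, at 1.69 and 1.64, with limma adjusted p-values of 0.286 and 0.122. Its call was lost with edgeR (adjusted p = 0.0619), with scaling to the library total (0.0545), and without Chow_EmKCs 1 (0.078) or 5 (0.0701) or MCD_EmKCs 1 (0.0611), 4 (0.0504) or 5 (0.0571). The difference between MCD_MoKCs and Chow_EmKCs was called within both sets, at 2.07 (adjusted p = 0.0467) and 2.88 (0.00478).

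Shmt2 and Mthfd2 encode successive steps of 1 pathway and moved in opposite directions by diet. The ratio of Mthfd2 to Shmt2, both per kilobase of exon, was 0.0264 to 0.250 in Chow_EmKCs (median 0.0980), 0.296 to 1.07 in MCD_EmKCs (median 0.573) and 0.158 to 0.869 in MCD_MoKCs (median 0.420). The ratios of Chow_EmKCs and MCD_EmKCs did not overlap. This follows from the separation of both genes between these groups in opposite directions and adds nothing to it. The ratio was chosen after the values of both genes were seen and is given without a test.

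**Figure D3:**
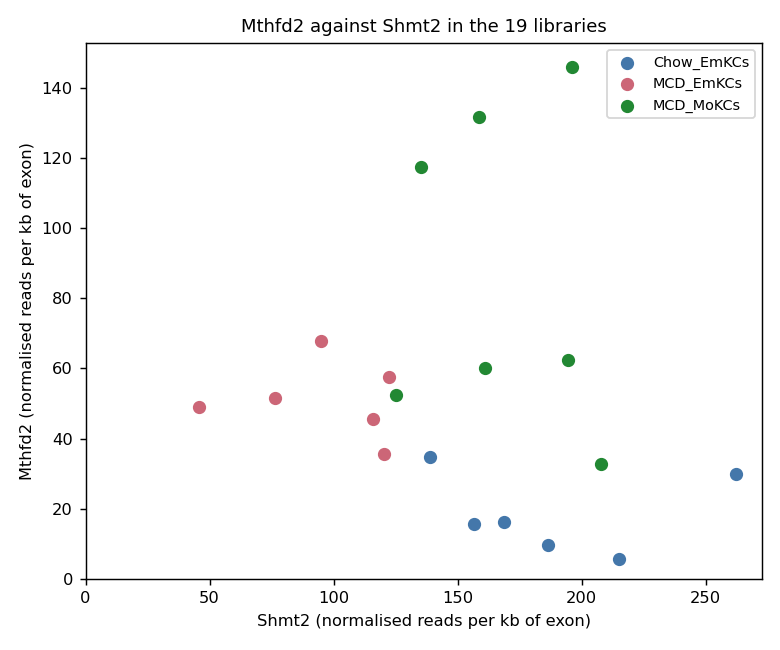
Mthfd2 (vertical axis) against Shmt2 (horizontal axis), both in normalised reads per kilobase of exon, in the 19 libraries coloured by group. MCD_EmKCs lie to the left at 45.6 to 122 for Shmt2, Chow_EmKCs lie along the bottom at 5.68 to 34.7 for Mthfd2, and all 7 MCD_MoKCs libraries lie to the right of MCD_EmKCs.

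Of 18 other folate one-carbon genes tested, 1 rose and 2 fell by diet, 1 was higher and 1 lower by origin, and 3 were higher and 3 lower in the third comparison. Mthfs, which returns formyltetrahydrofolate to the active folate pool, had 2014, 2501 and 3419.8 normalised reads (lowest, median, highest) in Chow_EmKCs, against 3449, 4496 and 5792 in MCD_EmKCs and 6325, 7767 and 8585 in MCD_MoKCs. No group overlapped another, in the order Chow_EmKCs, MCD_EmKCs, MCD_MoKCs. The difference by diet was 0.82 on the log2 scale (limma adjusted p = 0.00105, SE 0.15), and that by origin was 0.75 (SE 0.14, limma adjusted p = 0.000647). Folr2, the folate receptor beta of resident macrophages, ran the other way, from 14814 ± 4450.4 (SD, n = 6) to 7378 ± 993 (n = 6) and 2137 ± 886 (n = 7), with log2 fold changes of -0.96 (limma adjusted p = 0.0159) and -1.88 (1.42e-06). It is itself a Kupffer cell gene. Of 10 Kupffer cell markers, 2 were lower and 1 higher by diet, and 8 were lower by origin, among them the gate gene Timd4. Their part in the result for Folr2 was not tested.

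Aldh1l1, which removes one-carbon units from the cytosolic folate pool, fell from 914 ± 235 to 360.3 ± 190.3 by diet (limma adjusted p = 0.00711) and was at 183 ± 54.6 in MCD_MoKCs. Aldh1l1 is abundant in hepatocytes, and the hepatocyte markers fell with it as given above. Their part in its fall was not tested. Slc46a1, the proton-coupled folate transporter, was lower in MCD_MoKCs than in Chow_EmKCs, at -1.87 on the log2 scale (SE 0.43, limma adjusted p = 0.00258). In the same comparison Gart, a folate-dependent purine enzyme, was higher by 0.91 (SE 0.28, limma adjusted p = 0.0219), a call lost without Chow_EmKCs 4 (0.0642) or 6 (0.0611). Mthfd2l, the paralog of Mthfd2, had 40.6 to 94.3 normalised reads in Chow_EmKCs and 94.9 to 539 in MCD_MoKCs, or 1.45 (SE 0.51, limma adjusted p = 0.0488). Of the 19 fits without 1 library, 13 lost this call (adjusted p up to 0.122), and of the other alternatives 8 lost it and 4 kept it. Psat1, the aminotransferase of serine synthesis, had 0 reads in 3 of 6 Chow_EmKCs libraries and 80.7 normalised reads in Chow_EmKCs 2. Its mean was 13.8 in Chow_EmKCs and 89.7 in MCD_MoKCs, a ratio of 6.51, with 3 MCD_MoKCs libraries above every Chow_EmKCs library. On the log2 scale, where libraries at 0 can enlarge a difference, it was 4.49 (SE 1.12, limma adjusted p = 0.00493). Neither edgeR (0.187) nor DESeq2 (0.0871) called it.

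**Figure D4:**
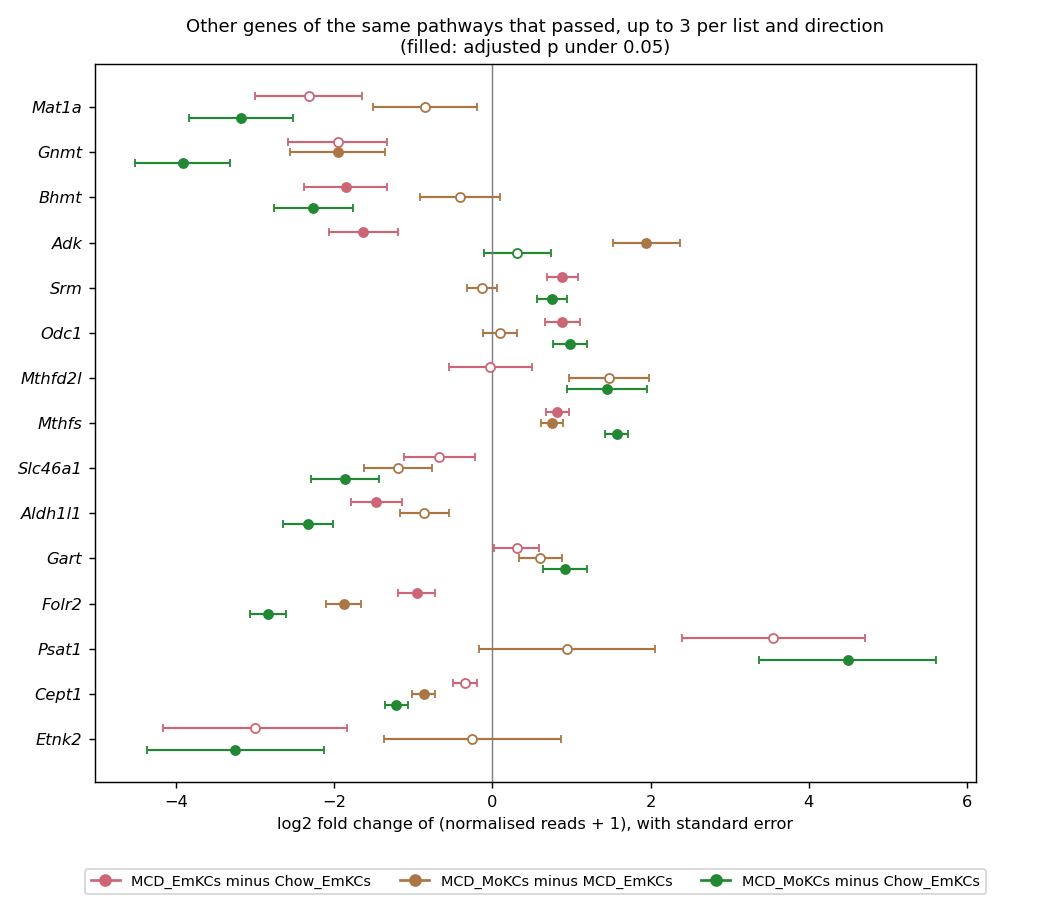
Log2 fold changes with standard errors of the other pathway genes that passed in at least 1 comparison, up to 3 per list and direction, with filled points where the limma adjusted p was under 0.05. Mthfs lies to the right and Folr2 to the left in all 3 comparisons, and Adk lies to the left for diet and to the right for origin.

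Slc44a1 (ENSMUSG00000028412, chromosome 4, 53440413 to 53622478) encodes the choline transporter-like protein CTL1. Normalised reads of Slc44a1, given as lowest, median and highest, came to 319.8, 485 and 1057 for Chow_EmKCs, 777, 935 and 1186 for MCD_EmKCs and 889, 1321 and 2728 for MCD_MoKCs. In Chow_EmKCs, libraries 4 and 6 stood at 964 and 1057, within the MCD_EmKCs range, and the other 4 lay below it. The group means were 614 ± 319 (SD, n = 6), 949 ± 140.2 (n = 6) and 1532 ± 637 (n = 7). Slc44a1 was 1.38 higher on the log2 scale in MCD_MoKCs than in Chow_EmKCs (SE 0.28, limma adjusted p = 0.000647), with 5 of 7 libraries above all Chow_EmKCs libraries. The differences of 0.77 by diet (95% interval 0.18 to 1.36, limma adjusted p = 0.149) and 0.60 by origin (95% interval 0.04 to 1.17, 0.183) did not pass. Slc44a1 shares 310 exon bases (4.5%) with the opposite-strand gene 1700060J05Rik, which had 3.73 to 106 normalised reads.

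Chka (ENSMUSG00000024843, chromosome 19, 3851773 to 3894369) encodes choline kinase alpha, which phosphorylates choline in the first step towards phosphatidylcholine. Chow_EmKCs had 741, 964 and 1441 normalised reads of Chka (lowest, median, highest), MCD_EmKCs had 933, 1916 and 2139, and MCD_MoKCs had 1246, 1749 and 2099. MCD_EmKCs 1 lay at 933, within the Chow_EmKCs range, and the other 5 MCD_EmKCs libraries lay above it, as did 5 of 7 MCD_MoKCs libraries. The group means were 1024 ± 233 (SD, n = 6), 1759 ± 444 (n = 6) and 1732 ± 340.4 (n = 7). Chka rose by 0.76 on the log2 scale by diet (SE 0.21, limma adjusted p = 0.0328) and was 0.76 higher in MCD_MoKCs than in Chow_EmKCs (SE 0.20, limma adjusted p = 0.00744). Both differences share the Chow_EmKCs libraries. MCD_MoKCs and MCD_EmKCs differed by 0.0020 on the log2 scale (95% interval -0.41 to 0.41, limma adjusted p = 0.997).

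The diet difference of Chka was 0.62 within the lower library numbers (limma adjusted p = 0.368) and 0.90 within the higher (0.0892). Its call was lost with scaling to the library total (0.134), with only the 2 groups in the fit (0.0581), and without any 1 of Chow_EmKCs 1, 2, 5 or 6 or MCD_EmKCs 2, 4, 5 or 6 (0.0613 to 0.0896). Against Chow_EmKCs, the MCD_MoKCs difference of Chka was 0.92 within the lower numbers (0.0318) and 0.55 within the higher (0.269), and it was 0.69 without MCD_MoKCs 1 to 3 (0.0606). Chkb, the second choline kinase gene, had means of 1684 ± 489, 1398 ± 309 and 1291 ± 262 normalised reads in the 3 groups and did not pass in any comparison. Per kilobase of exon, the ratio of Chka to Chkb had a median of 0.151 in Chow_EmKCs, against 0.344 in MCD_EmKCs and 0.356 in MCD_MoKCs, and the ranges overlapped.

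Pcyt1a (ENSMUSG00000005615, chromosome 16, 32430921 to 32475070) encodes the alpha form of CCT, which joins phosphocholine to CTP and sets the rate of the pathway. Normalised reads of Pcyt1a, given as lowest, median and highest, came to 358, 591 and 758 for Chow_EmKCs, 552, 829 and 1009 for MCD_EmKCs and 878, 1248 and 1297 for MCD_MoKCs. MCD_MoKCs lay wholly above Chow_EmKCs, and MCD_EmKCs overlapped both. The group means were 569 ± 138 (SD, n = 6), 814 ± 179.6 (n = 6) and 1147 ± 159.9 (n = 7). Pcyt1a was 1.04 higher on the log2 scale in MCD_MoKCs than in Chow_EmKCs (SE 0.20, limma adjusted p = 0.000368). The differences of 0.52 by diet (95% interval 0.10 to 0.95, limma adjusted p = 0.18) and 0.51 by origin (95% interval 0.11 to 0.92, 0.102) did not pass. Pcyt1a shares 567 exon bases (7.6%) with the opposite-strand gene Slc51a, which had at most 3.81 normalised reads.

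The 3 choline genes were each higher in MCD_MoKCs than in Chow_EmKCs, and all of these calls were kept in each of the 19 fits without 1 library. Within the higher library numbers, which hold 2 MCD_MoKCs libraries, the differences were 0.54 for Pcyt1a (limma adjusted p = 0.282) and 1.08 for Slc44a1 (0.151). Within the lower numbers they were 1.38 (0.00197) and 1.69 (0.00309). By origin, 0 of the 3 genes passed with limma, 2 had an unadjusted p under 0.05, and edgeR and DESeq2 called 0. Markers of other cells moved between MCD_MoKCs and Chow_EmKCs. Of those tested, 4 of 9 for T and NK cells, 4 of 4 for neutrophils and 2 of 3 for platelets were higher. Of 9 sinusoidal endothelial cell markers 7 were higher and 2 lower. Lower were also 8 of 10 Kupffer cell markers, the gate gene Timd4 among them, and 13 of 14 hepatocyte markers. Of 7 stellate cell markers 1 was higher. T and NK cell markers summed to 78.1 to 177 normalised reads in Chow_EmKCs and 342 to 667 in MCD_MoKCs, neutrophil markers to 15.6 to 151 and 125 to 2344, and platelet markers to 203 to 766 and 1603 to 4619. The part of all these cells in the results for Mthfd2 and the choline genes was not tested.

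Of 11 other choline and phosphatidylcholine genes tested, 0 rose in any comparison. By diet limma called 0, with 4 at an unadjusted p under 0.05, and edgeR and DESeq2 called 0. Cept1, which joins the activated choline or ethanolamine head group to diacylglycerol, had 2622, 3876 and 4203 normalised reads (lowest, median, highest) in Chow_EmKCs, against 2602, 2726 and 3495 in MCD_EmKCs and 1193, 1553 and 1863 in MCD_MoKCs. MCD_MoKCs lay wholly below both other groups. Cept1 was lower by origin, at -0.87 on the log2 scale (SE 0.14, limma adjusted p = 0.00013) and against Chow_EmKCs, at -1.22 (SE 0.14, 5.55e-07). Pemt, which methylates phosphatidylethanolamine with SAM in hepatocytes, had at most 58.6 normalised reads in any library. Etnk2, an ethanolamine kinase of liver, had means of 46.1 in Chow_EmKCs and 8.76 in MCD_MoKCs, where 4 of 7 libraries had 0 reads. Its limma adjusted p was 0.0465, and edgeR (0.286) and DESeq2 (0.267) did not call it. Of the 19 fits without 1 library, 8 lost its call (adjusted p 0.0845 to 0.105). Of the other alternatives, edgeR and DESeq2 among them, 8 lost it and 4 kept it.

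Levels between genes were compared per kilobase of exon. Mat2a was the highest of the 9 in each group, at 899 ± 195, 1047 ± 202 and 785 ± 181 normalised reads per kilobase (SD, n = 6, 6 and 7), and did not overlap the next gene in any group. In Chow_EmKCs the order went on with Mat2b (191 ± 21.2), Shmt2 (188 ± 44.7), Slc44a1 (88.4 ± 45.9), Chka (85.2 ± 19.4), Pcyt1a (76.8 ± 18.6) and Mtr (75.6 ± 11.9), each overlapping its neighbour. Ahcy (30.2 ± 10.2) and Mthfd2 (18.6 ± 11.4) came last, overlapping each other and not Mtr. In MCD_EmKCs Shmt2 stood seventh at 95.9 ± 30.3, below Chka at 146 ± 36.9 and Slc44a1 at 137 ± 20.2, and its range overlapped those of its neighbours Mtr and Mthfd2. In MCD_MoKCs Slc44a1 stood second at 221 ± 91.8 and overlapped Shmt2 at 168 ± 32.0. Ahcy was lowest in both MCD groups, at 20.9 ± 11.7 and 39.1 ± 22.6.

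For the 3 of the 9 genes with the smallest adjusted p, the tested genes with the most similar pattern over the 19 libraries were found by Pearson's r of log2 normalised reads plus 1. For Mthfd2 they were Sort1 (r = 0.860), Fnip2 (0.852) and Nceh1 (0.849). For Pcyt1a they were Clcf1 (0.881), Rab11fip1 (0.881) and Csrnp1 (0.880), and for Slc44a1 Atp6v0d2 (0.871), Gm15270 (0.860) and Ccn2 (0.851). These values contain the differences between the groups. With the group means taken out, r was 0.517 to 0.555 for the genes like Mthfd2, 0.527 to 0.563 for those like Pcyt1a and 0.674 to 0.729 for those like Slc44a1. The same 19 libraries served to choose these genes, so these r are not a separate check on the likeness. Sort1, for example, had means of 10.7, 219 and 1751 normalised reads in Chow_EmKCs, MCD_EmKCs and MCD_MoKCs, and Atp6v0d2 had 96.5, 382 and 1552.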

How the data were processed

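RNA of 19 sorted Kupffer cell samples was amplified by Smart-seq and sequenced, per the labels' protocols. The authors deposited 1 table of a normalised read signal. Its values are reads divided by 1 size factor per library: 100% of values in each library were whole multiples of 1 step within 0.01 reads, which recovered the reads. STAR, DESeq2 and mm10 are named in the submitters' processing notes. Versions, the counting tool and its annotation: not given in the sources used here. Counting precision was not computed from reads without molecular identifiers, so the spread between libraries was used.

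Identifiers reaching a value of 10 in 6 or more libraries entered limma 3.58.1 (R 4.3.3) on log2(value + 1), with trend and robust variance, all 19 libraries in 1 model with a mean per group, two-sided, Benjamini-Hochberg adjusted over all 14875 genes at 0.05. For low genes a fold change on this scale can be smaller than the ratio of the group means, or larger where some libraries are at or near 0. Alternatives were other pseudocounts, no filter, scaling to the library total, edgeR 4.0.16, DESeq2 1.42.0, a replicate block, a covariate for the library number sets, 2 groups only, each library number set alone, and fits without 1 library or MCD_MoKCs 1 to 3. The fit was tested on simulated data.

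All 9 genes are named. Of other pathway genes, up to 3 per list, direction and comparison were named by smallest adjusted p. Amd1, Pemt, Chkb and the Psat1 and Etnk2 levels by library were added after their values were seen. The genes and lists were chosen with earlier results of these data known. Symbols were found for 29062 identifiers. Gene positions and exon lengths are from GENCODE (mm10), promoter sequences from RefSeq (GRCm38.p6).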

Additional observations from a re-analysis of the deposited data

Results flagged for a closer look

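Ahcy in MCD_MoKCs 3 stood far above the other 6 libraries of its group, at 239.9 normalised reads against 134 in the next. It was the only one of 27 groups of values tested (9 genes in 3 groups) with such a gap by Dixon's criterion at the 95% level, and chance flags about 1 in 20. Gm4737 and Gm9826 are near-identical to Ahcy, and their part in this value was not tested.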

How the results depend on the processing

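Within the library numbers up to 33, 179, 870 and 1257 genes passed for diet, origin and the third comparison, and within those from 37, 263, 565 and 1288, with fewer libraries in each fit. Of the 9 genes, 0 and 0 passed for diet, 0 and 0 for origin and, from 37, 1 for the third comparison. Other pathway genes called were 1 and 4 for diet, 3 and 3 for origin and, up to 33, 7 for the third comparison. With scaling to the library total 1 of the 9 genes passed for diet. Without MCD_MoKCs 1 to 3, 1010 genes and 0 of the 9 passed for origin. Fits without 1 library called 468 to 620, 1288 to 1596 and 2193 to 2590 genes. Of the 9 genes they called 1 to 3, 0 to 1 and 4, with 1 for diet without Chow_EmKCs 1, 5 or 6 or MCD_EmKCs 4, 5 or 6. Of the other pathway genes they called 4 to 10, 4 to 8 and 11 to 16.

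Several uncalled differences changed sign. Chka by origin was -0.038 with edgeR, -0.021 with DESeq2, -0.35 from 37 and -0.068 without MCD_MoKCs 1 to 3, and ranged from -0.17 to 0.077 without 1 library. Mat2b from 37 was 0.27 by origin and 0.20 in the third comparison. In the third comparison Mtr was 0.0018 with DESeq2, 0.15 without MCD_MoKCs 1 to 3 and -0.48 to 0.0012 without 1 library, and Shmt2 was 0.058 up to 33. The cause was not tested.

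Same-numbered libraries showed little shared deviation (correlations -0.0743 to 0.0759, 0 of 6 pairs over 0.1 in each comparison). The own number was the best match in 2, 2 and 3 of 6. These values cannot decide whether same-numbered libraries share an animal, which the labels do not give. The replicate block, which drops MCD_MoKCs 7, called 603, 1663 and 2479 genes and 2 of the 9 by origin, adding Mat2a (-0.51, limma adjusted p = 0.0195). edgeR called 554, 1325 and 2086 genes and DESeq2 904, 1846 and 2588.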
